A study of Clonorchis sinensis with 4 samples.

Results

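Extracellular vesicles are membrane-bound particles that cells release, and those of parasitic worms carry small RNA out of the parasite. The regions described here are the 11816 genomic scaffolds to which small RNA of vesicles secreted by adult Clonorchis sinensis, the Chinese liver fluke, was assigned. A scaffold is a stretch of assembled genome, here also a whole chromosome where the assembly gives one, and a tag is one sequenced small RNA. All 11816 scaffold rows of the deposited table were taken, which is every scaffold with at least 1 tag, and none was left out. They were grouped by the start of their names into C. sinensis (DF14), Opisthorchis viverrini (NW_0087), Fasciola hepatica (LN62) and Schistosoma mansoni (NC_0315). The first is the species sampled, the second a closely related liver fluke, the third the liver fluke of cattle and sheep, and the fourth a blood fluke. A further 4818 scaffolds had other names.

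The series comprised 4 small RNA libraries, 1 each of vesicles secreted by adult worms, adult worms, eggs and metacercariae, the encysted larval stage. The labels name no strain, host, treatment or vesicle isolation method, and the scaffold counts exist for vesicles only. Each group was 1 library, so there was no replicate check and no test between groups. Of 3083550 clean vesicle tags, 2235582 (72.5%) were mapped. Counts per scaffold summed to exactly that number, as they would if each mapped tag was counted on 1 scaffold. The total was deposited with the counts, so the equality alone cannot show this. How a tag that matches several scaffolds equally was placed is not given in the sources used here. Intervals are exact Clopper-Pearson intervals for shares and exact conditional binomial intervals for ratios, at 95%. They cover counting error only, since amplified copies of 1 molecule cannot be recognised here.

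MicroRNAs (miRNAs) are short RNAs cut from hairpin precursors that lower the output of target messages, and their sequences can be nearly the same across flukes. Piwi-interacting RNAs (piRNAs) are small RNAs that, in flies and mammals, silence transposons in the germ line, while flukes are not known to have Piwi proteins. Gypsy elements are retrotransposons with long terminal repeats. The predicted miRNAs (novel_mir) and piRNAs (novel_pir) below are the authors' predictions, and every piRNA entry was placed in a Gypsy element. With no genome sequence at hand, no scaffold sequence was read.

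Tags were concentrated on 1 scaffold of C. sinensis. DF143900.1 held 801370 tags, 35.8% of all mapped tags (35.8 to 35.9) and 54.5% of those on C. sinensis scaffolds. The next scaffold, NC_031502.1 of S. mansoni, held 61450 tags, 13.0-fold fewer (12.9 to 13.1). DF143900.1 alone held 2.08 times the sum of ranks 2 to 10. It carried no predicted miRNA and no piRNA of the vesicle table. In the other libraries 1 adult piRNA entry of 26 tags (605951 to 606909, plus strand) and 1 predicted miRNA of eggs with 11 tags (novel_mir116, 184070 to 184120) lay on it.

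Ranks 2 to 6 lay close together although they belong to 4 species. NC_031502.1 (S. mansoni) was followed by DF145142.1 (C. sinensis) with 57102 tags, NW_008751932.1 (O. viverrini) with 56545, DF143620.1 (C. sinensis) with 55943 and LN627896.1 (F. hepatica) with 55295. From rank 3 to rank 6, no scaffold differed from the next beyond counting error. Only neighbours in rank were compared, so rank 3 and rank 6 may still differ. The ratios were 1.01 (0.998 to 1.02), 1.01 (0.999 to 1.02) and 1.01 (1.00 to 1.02, from 0.99988). These 5 scaffolds took 12.8% of mapped tags. A step of 1.67-fold (1.65 to 1.69) separated them from DF144915.1 (C. sinensis, 33099 tags). LN646729.1, a name outside the 4 prefixes, had 23513 tags, NW_008751940.1 (O. viverrini) 22134 and DF143191.1 (C. sinensis) 20930. Whether scaffolds of neighbouring rank share the same tags was not tested.

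**Figure D1:**
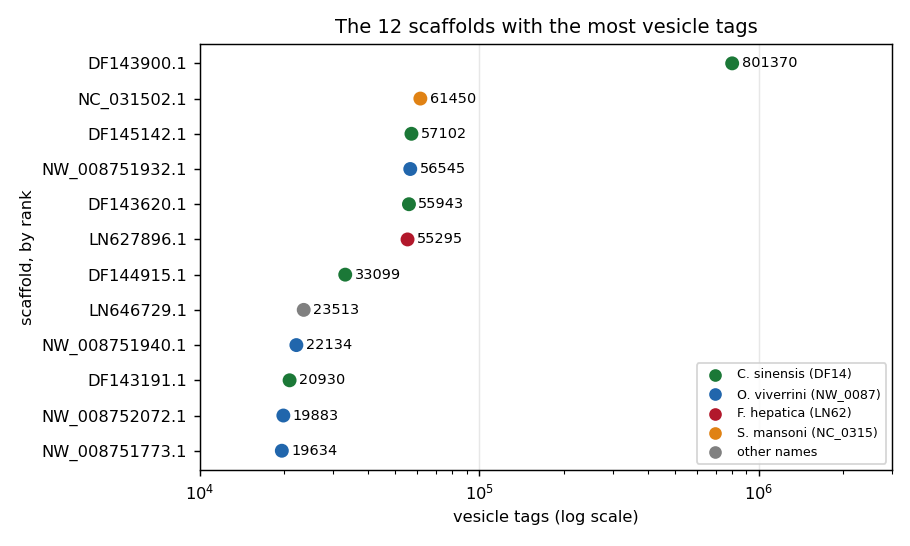
Vesicle tags (log axis) of the 12 scaffolds with the most tags, 1 point each, coloured by the species of the name prefix. DF143900.1 stands apart at 801370 tags, and ranks 2 to 6, of 4 species, lie between 55295 and 61450.

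Among the classes into which the authors sorted all clean tags, only introns (1111548 tags) held more than the 801370 tags of DF143900.1. There were 662610 intergenic, 93057 exon and 48803 repeat tags. Known mature miRNAs numbered 286031 tags in all. The most abundant, miR-71a-5p, had 209169, and DF143900.1 was the 1 scaffold with as many tags. The known miRNAs carry no coordinates, so their scaffolds are not given. The exon, intron, intergenic and repeat classes summed to 1916018 tags. If those 4 classes hold mapped tags only, which the tables do not state, 319564 mapped tags are left for all other classes. At least 481806 tags of DF143900.1 (60.1%) would then belong to the 4 classes. The miRNA and Rfam classes held 423248 tags, more than 319564, so not all classed tags are among the mapped tags. Which classes the unmapped ones belong to is not given. By length, 21-base reads made up 43.0% of reads of at least 18 bases (1325395), and no other length exceeded 446981. Lengths are not given per scaffold.

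C. sinensis scaffolds held 1470416 tags, 65.8% of mapped tags (65.7 to 65.8), on 2334 scaffolds. O. viverrini scaffolds held 17.1% (17.1 to 17.2) on 1891, F. hepatica 6.76% (6.73 to 6.80) on 2770 and S. mansoni 3.00% (2.98 to 3.02) on 3. Scaffolds of the 3 other flukes together took 26.9% (26.8 to 27.0). Without DF143900.1 they took 41.9%, and C. sinensis scaffolds took 46.6%. Scaffolds with other names then took 11.4%, so the order of these shares depends on the species of those names. The library is labelled C. sinensis. C. sinensis tags that match the sequence of another fluke and tags from another source cannot be told apart in these counts.

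A typical C. sinensis scaffold also held more tags than one of O. viverrini, of F. hepatica or with another name. The 3 S. mansoni sequences had a higher median, 2989 tags. The median was 68 tags (quartiles 22 and 186) on C. sinensis scaffolds, 7 (2 and 82) on O. viverrini and 9 (4 and 20) on F. hepatica scaffolds. Scaffolds with other names had a median of 3 tags. A single tag was the whole count of 1.76% of C. sinensis scaffolds, against 24.6% of O. viverrini, 7.44% of F. hepatica and 32.2% of otherwise named scaffolds. Scaffolds of at least 10 tags made up 87.1%, 46.8%, 47.6% and 17.6% in the same groups. The table gives no scaffold lengths, so tags per base could not be computed.

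The prefix NC_0315 took in 3 of 8 sequences named NC_03, and these were NC_031502.1, NC_031500.1 (2989 tags) and NC_031501.1 (2667 tags). The other 5, among them NC_031495.1, which the table describes as chromosome 1 of S. mansoni, held 1924 to 6584 tags. NC_031502.1 held 70.6% of the tags on all 8. The remaining names outside the prefixes were 3582 scaffolds starting with LN63 (54423 tags), 369 with LN64 (29837), 648 with BADR (22508), 213 with NW_0173 (36250) and NC_002545.1 (653). LN646729.1 held most of the LN64 tags, NW_017386004.1 (13461 tags) led the NW_0173 scaffolds, and BADR02006187.1 (4559 tags) the BADR scaffolds. With scaffolds grouped by the letters of the name alone, the shares were 65.8% for DF, 18.8% for NW_, 10.5% for LN and 3.92% for NC_. The NW_ share takes in the NW_0173 scaffolds, whose species is not given.

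Concentration differed between the species groups. Of all tags, 50% lay on 7 scaffolds, 53.1% (53.0 to 53.2) on 10, 70.9% on 100 and 90% on 984. Without DF143900.1 it took 69 scaffolds to reach 50%. On C. sinensis scaffolds the leader alone passed 50%, and 48 scaffolds were needed without it. On F. hepatica scaffolds 6 were needed, but 41 without LN627896.1, which held 36.6% (36.3 to 36.8) of that group. On O. viverrini scaffolds 15 were needed, the most of these 3 groups, and NW_008751932.1 held 14.8% (14.6 to 14.9). Without its leader O. viverrini needed 30, the fewest of the 3. For 90% of tags, 374 scaffolds of C. sinensis, 303 of O. viverrini and 701 of F. hepatica were needed, so the order depended on the leader and on the level chosen. Scaffolds named LN63 or LN64 are not in the F. hepatica counts. On the 3 S. mansoni sequences NC_031502.1 held 91.6% (91.4 to 91.8).

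**Figure D2:**
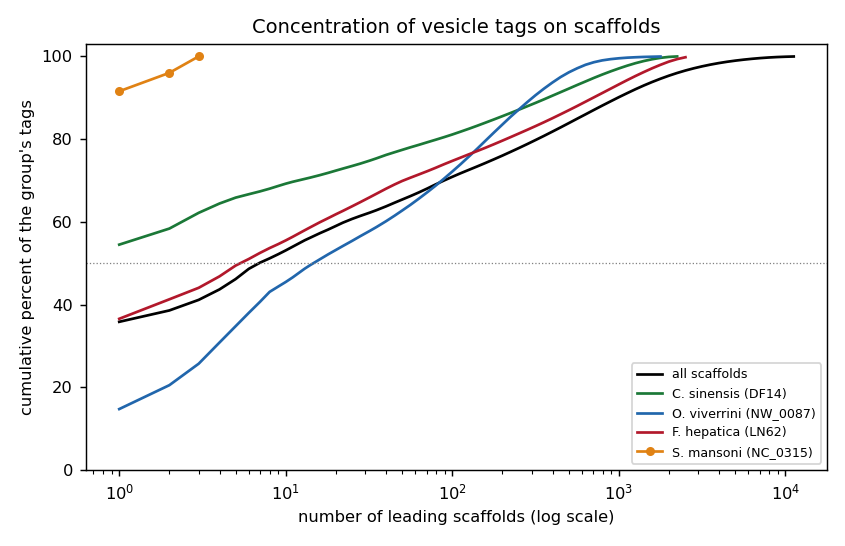
Cumulative percent of a group's tags (vertical) against the number of its leading scaffolds (log axis), for all scaffolds and each species prefix, with a dotted line at 50%. C. sinensis starts at 54.5% and O. viverrini at 14.8%.

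Below the leader, O. viverrini scaffolds NW_008752072.1 and NW_008751773.1 held 19883 and 19634 tags, which did not differ beyond counting error, and NW_008751668.1 held 15131. Those of F. hepatica, taken as LN62 names, fell off faster. LN646729.1 (23513 tags), an LN name outside that prefix, is not among them. LN627527.1 held 7123 tags, LN628140.1 4201, LN627598.1 4185 and LN627090.1 3946. The 100 leading scaffolds each held at least 1733 tags. By prefix, 47 were of C. sinensis, 22 of O. viverrini, 8 of F. hepatica, 3 of S. mansoni and 20 had other names. Those 20 included LN646729.1 and the 5 NC_0314 sequences, 1 of which is described as chromosome 1 of S. mansoni. Every scaffold also has a numbered alias, and the numbers ran to 67421. All of aliases 1 to 1000 were listed, with 63.0% of tags, against 79.8% of those above 1000 up to 10000, with 28.2%, and 6.33% of higher ones, with 8.83%. Among scaffolds with a predicted locus in any library, the median of the highest listed coordinate was 464487, 85642 and 3263 in these 3 bins. What orders the aliases is not given. DF145142.1 (alias 20594) and LN646729.1 (alias 25283) were leading scaffolds with high alias numbers.

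Most leading scaffolds carried no listed locus, although a larger share of them did than of all scaffolds. The vesicle table placed 27 predicted miRNAs on 27 scaffolds and 208 piRNA entries on 48, which is 74 scaffolds in all since DF143504.1 had both. These 74 scaffolds (0.626% of all) held 5.51% of mapped tags (5.48 to 5.54), or 8.59% with DF143900.1 left out. Of the 10 leading scaffolds 1 carried a listed locus, DF144915.1, and of the 100 leading scaffolds 13 did, 7 with a predicted miRNA and 6 with piRNAs. With loci of the adult, egg and metacercaria tables added, 287 scaffolds carried a locus and held 51.5% of mapped tags, but 24.5% once DF143900.1 was left out. Beside DF143900.1, the leading 10 then included NC_031502.1, with 1 predicted miRNA of eggs (49 tags), and LN627896.1, with 1 of metacercariae (10 tags). The remaining 6 of the 10 carried none in any table.

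The tags of listed loci may not be among the tags counted on scaffolds. In the authors' class table without predicted loci, 744284 clean tags were unmapped. In the table that lists the loci, 722334 were without annotation. The difference of 21950 equals the summed tags of all predicted miRNAs (15973) and piRNAs (5977), while the other 11 classes were identical in both tables. The scaffold counts leave 847968 clean tags unmapped, not 744284, so that class is not the set of tags missing from scaffolds. Whether locus tags are among the scaffold counts cannot be read from these class totals. Locus tags are therefore set beside scaffold tags below, not given as a part of them. In 11 of the 74 scaffolds the locus tags exceeded the scaffold tags, 5 with a predicted miRNA and 6 with piRNAs. On those 11, not all locus tags can have been counted on the scaffold that carries the locus. On LN627598.1 of F. hepatica, novel_mir11 (1959 to 2033) had 10394 tags, 248% of the 4185 tags of the scaffold. On DF144230.1, novel_mir1 (137114 to 137187) had 1356 tags against 622, on LN628271.1 novel_mir21 (69761 to 69830) had 171 against 74, and on DF143995.1 novel_mir3 (299996 to 300057) had 742 against 713.

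The 7 scaffolds with a predicted miRNA among the leading 100 ranged widely in locus tags beside scaffold tags. The highest was LN627598.1, given above, and the other 6 were at or under 13.3%. DF144915.1 had 33099 tags and its novel_mir9 (10936 to 10984) 13. NW_008751668.1 had 15131 and novel_mir40 (128240 to 128281) 2013, or 13.3%. NW_008751832.1 of O. viverrini had 10190 and novel_mir14 (1040090 to 1040174) 193. DF143185.1 had 10041 and novel_mir39 (97215 to 97286) 51, LN627527.1 had 7123 and novel_mir44 (522740 to 522799) 15, and NW_008753117.1 had 4233 and novel_mir24 (1274 to 1333) 29. Among the 6 with piRNAs, DF143974.1 had 1159 locus tags beside 2616, or 44.3%, and DF142828.1 had 515 beside 2553, or 20.2%, while the other 4 ranged from 0.775% to 14.8%. Over the 27 scaffolds with a predicted miRNA, locus tags were at a median of 13.3% of scaffold tags, and over the 48 with piRNAs at 10.1%.

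**Figure D3:**
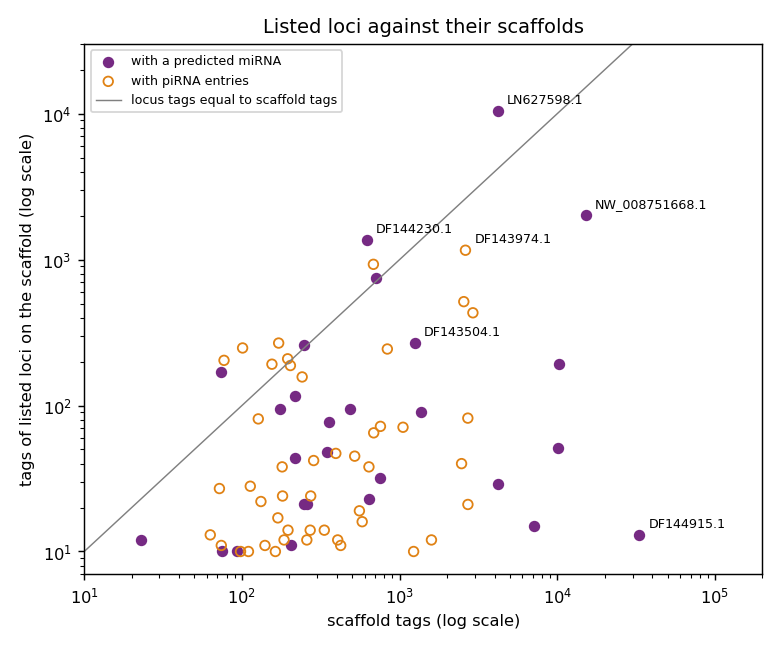
Tags of listed loci (vertical, log axis) against tags of the scaffold that carries them (horizontal, log axis), 1 point for each of the 74 scaffolds. Points above the grey line have more locus tags than scaffold tags, as LN627598.1 with 10394 against 4185, and DF144915.1 lies far to the right with 13 locus tags.

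Predicted miRNAs lay on scaffolds of 3 species, 12 on C. sinensis, 11 on O. viverrini and 4 on F. hepatica, and none on S. mansoni. For 15 of the 27, an overlapping predicted miRNA was listed in adult worms, where 5 had a ratio of vesicles to adults above 1 and 10 below 1 in RPM, tags in every 1000000 annotated tags of the library. The locus on LN627598.1 stood at 4402 RPM in vesicles and 1595 RPM in adults (ratio 2.76, 2.70 to 2.82). The one on DF143173.1 (novel_mir35, 215452 to 215525) stood at 40.2 RPM in vesicles and 2.53 RPM in adults (15.9, 11.2 to 23.0). That on NW_008751718.1 (novel_mir33, 375172 to 375250) stood at 8.89 RPM in vesicles and 1011 RPM in adults (0.00879, 0.00544 to 0.0134). Ratios above 1 were also found on DF143185.1 (5.44), DF144396.1 (novel_mir38, 3.75) and DF143956.1 (novel_mir34, 2.10). Ratios below 1 were found on NW_008753117.1 (0.0131), NW_008751879.1 (novel_mir17, 0.0156), DF143995.1 (0.129), NW_008751832.1 (0.148), DF142892.1 (novel_mir13, 0.184), LN628271.1 (0.239), LN627527.1 (0.266), NW_008751719.1 (novel_mir32, 0.438) and NW_008751971.1 (novel_mir5, 0.486). Scaled to the predicted miRNA tags of each library, 7 ratios were above 1 and 8 below. NW_008751971.1 then stood at 1.61 (1.42 to 1.83) and NW_008751719.1 at 1.45 (1.06 to 1.94). The other 12 had no overlapping entry in adults, eggs or metacercariae, and their vesicle counts ran from 10 to 2013 with a median of 26.5. They include novel_mir40 and novel_mir1. novel_mir18 (DF144495.1, 117 tags beside 216 scaffold tags), novel_mir10 (LN627112.1, 91 beside 1370) and novel_mir43 (DF143386.1, 77 beside 357) follow, then novel_mir7 (30) and novel_mir23 (NW_008751778.1, 23 beside 643). The lowest were novel_mir9 (13), novel_mir37 (NW_008792014.1, 12 beside 23), novel_mir29 (NW_008752178.1, 11 beside 204), novel_mir28 (DF144138.1, 10 beside 93) and novel_mir41 (NW_008752378.1, 10 beside 75). At the 15 matched loci only novel_mir3 had the same name in vesicles and adults. Thus novel_mir34 of vesicles is novel_mir120 of adults, and novel_mir38 of vesicles is novel_mir34 of adults. A name therefore need not mean the same locus in vesicles and in the stages. How the predictions were run is not given, so no fold is given for the 12 without an overlapping entry.

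piRNA entries were placed on scaffolds with the C. sinensis prefix, except 1 on BADR02004299.1 (13 tags), a name outside the prefixes whose species is not given. They covered 54 Gypsy loci, 34 on the plus strand with 3560 tags and 20 on the minus strand with 2417. The most tags were listed on DF143974.1, where 41 entries at 2 loci held 1159 tags beside 2616 scaffold tags, of which the locus at 133707 to 136377 (plus) held 1025. The locus on DF143495.1 at 160297 to 160685 (minus) held 917 tags and the neighbouring one at 159488 to 159868 held 11, beside 682 scaffold tags. DF142828.1 (965544 to 968170, minus) held 515 tags in 8 entries beside 2553. Single entries dominated on DF144110.1 (184264 to 184678, minus), with 248 tags in 1 entry beside 101 scaffold tags, and on DF143308.1 (74159 to 75189, plus), with 268 tags in 2 entries, 248 of them in 1, beside 171. On DF143504.1 novel_mir7 (7576 to 7629, 30 tags) lay between piRNA loci at 6986 to 7378 and 7808 to 8842, 179 bases from the nearer one.

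In vesicles piRNA entries held 2531 RPM and in adults 9167 RPM, a ratio of 0.276 (0.269 to 0.283). Entries are listed from 10 tags upward, which is 4.24 RPM in vesicles and 0.515 RPM in adults. Adult entries at or above 4.24 RPM alone held 3627 RPM, and the ratio was then 0.698 (0.680 to 0.717). Adults listed entries at 161 Gypsy loci and vesicles at 54. Only loci listed in vesicles were compared, so the counts below do not describe all adult loci. Of 51 loci listed in both libraries, 33 (64.7%) had a ratio interval wholly below 0.5 and 6 (11.8%) wholly above 2, at a median ratio of 0.258. Scaled to piRNA tags, the numbers were 7 (13.7%) and 14 (27.5%). With adult entries held to 4.24 RPM, they were 13 (35.1%) and 3 (8.11%) of 37. The 14 loci left out had no single adult entry at that level, whatever their adult sum. DF142918.1, for example, held 25.6 RPM in adults over 19 entries. The 14 include 1 locus that was wholly below 0.5 with every adult entry. They also include all 6 that were wholly above 2, so the 3 are different loci. The number of loci lower in vesicles thus changed with the scaling and with the listing minimum.

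Loci on the same scaffold could differ in their ratio. On DF143974.1 the one at 133707 held 434 RPM in vesicles and 1179 RPM in adults (ratio 0.368, 0.346 to 0.392, but 1.33 scaled to piRNA tags). The one at 112611 to 113114 held 56.8 RPM in vesicles and 4.69 RPM in adults (12.1, 9.20 to 16.0, and 43.8 scaled to piRNA tags). The loci of DF143495.1 lay on either side of 1 under both scalings, at 388 RPM in vesicles and 278 RPM in adults (1.40, 1.30 to 1.498) for the locus at 160297, against 4.66 RPM in vesicles and 323 RPM in adults (0.0144, 0.00720 to 0.0258) for that at 159488. DF144110.1 held 105 RPM in vesicles and 1.19 RPM in adults (88.6, 57.7 to 142), and DF143308.1 held 114 RPM in vesicles and 9.84 RPM in adults (11.5, 9.54 to 14.0). DF142828.1 held 218 RPM in vesicles and 505 RPM in adults (0.432, 0.394 to 0.472, but 1.56 scaled to piRNA tags). The high ratios on DF144110.1 and at 112611 each rest on 1 vesicle entry, and in adults no entry at those loci, on DF143308.1 or on DF143653.1 reached 4.24 RPM.

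**Figure D4:**
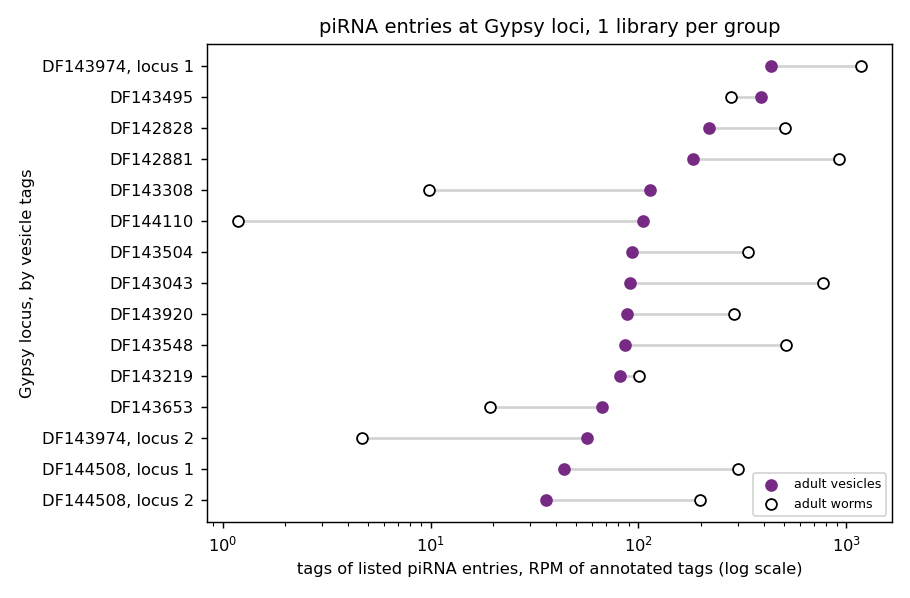
Tags of listed piRNA entries at the 15 Gypsy loci with the most vesicle tags among those listed in both libraries, in RPM of annotated tags (log axis), for vesicles (filled) and adult worms (open), 1 library each. Vesicles lie to the right on DF144110, DF143308, DF143653, DF143495 and the second locus of DF143974.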

How the data were processed

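Trizol was used to isolate total RNA of all 4 samples, and library preparation was by Illumina's standard method, per the labels' protocols. The authors deposited raw tag counts per scaffold for vesicles, with each count as a percent of clean tags, and tag counts per small RNA entry for every library, per the file headers. For the aligner, the genome builds, the prediction tools and the strand of scaffold tags, the entry is: not given in the sources used here. Shares, ratios and concentration were computed with Python 3.11.15, pandas 2.3.3 and SciPy 1.17.1, and the interval functions were tested on simulated counts. Loci were joined to scaffolds by name without the version number, and all vesicle loci found their scaffold. Predicted miRNAs of 2 libraries were matched by overlapping coordinates and piRNA loci by equal coordinates. Annotated tags numbered 2361216 in vesicles and 19404746 in adults. The scaffolds named were the 10 leading ones, the 5 leading of each species, and those of the predicted miRNAs and of the 10 most abundant piRNAs, and others were chosen after their values were seen. The members and lists were chosen with earlier results of these data known. Base qualities, base composition, read filtering totals and 1 column of vesicles of another species were not used.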

Additional observations from a re-analysis of the deposited data

How the results depend on the processing

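Each alternative changed 1 choice at a time. Restricting to scaffolds of at least 10 tags moved the shares of tags to 66.4% for C. sinensis, 17.2% for O. viverrini, 6.53% for F. hepatica, 3.03% for S. mansoni and 6.87% for other names, and the share on the 10 leading scaffolds to 53.6% in all, 45.8% for O. viverrini and 58.0% for F. hepatica. Leaving out DF143900.1 gave species shares of 46.6%, 26.7%, 10.5%, 4.68% and 11.4% in that order, and 8.59% on scaffolds with a listed locus. Leaving out the leading scaffold of each group gave shares on the next 10 of 28.3% in all, 33.4% for C. sinensis, 37.3% for O. viverrini and 31.2% for F. hepatica, and raised the number of scaffolds holding 50% of tags to 69, 48, 30 and 41. Of all clean tags the species shares were 47.7%, 12.4%, 4.90%, 2.18% and 5.31%. Grouping by letters alone gave 18.8% for NW_, 10.5% for LN, 3.92% for NC_ and 1.01% for other names. Here NW_ is not O. viverrini alone, since it takes in NW_0173 names of unstated species. Adding loci of the stage tables raised the share of tags on scaffolds with a locus to 51.5%. Among piRNA loci listed in both libraries, the number lower in vesicles than in adults was 33, but 7 scaled to piRNA tags. It was 13 with adult entries held to the vesicle listing minimum. That alternative was chosen after seeing the data and leaves out 14 loci with no single adult entry at that minimum. Scaling to piRNA tags reversed the ratios on DF143974.1 at 133707 (1.33) and on DF142828.1 (1.56). Scaling to predicted miRNA tags reversed those on NW_008751971.1 (1.61) and NW_008751719.1 (1.45), and the cause was not tested. No strand comparison was run because the scaffold table gives none. No paired analysis was possible because each group is 1 library. With 2235582 mapped tags, a scaffold at 0 tags is limited by depth, and 2265 of the 11816 listed scaffolds rest on 1 tag.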
